A study of Mus musculus with 4 samples.

Results

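Tubulin isotype genes encode the α- and β-tubulins, which pair into the dimers from which microtubules are built. The 9 genes described here were the β-tubulin genes *Tubb1*, *Tubb2a*, *Tubb2b*, *Tubb3*, *Tubb4b*, *Tubb5* and *Tubb6* and the α-tubulin genes *Tuba4a* and *Tuba8*. They were chosen by name with the differences between 4OHT- and EtOH-treated cells already known, so that their values in this comparison are given as a description and without a test. A gene was read from the probe set with exactly 1 gene symbol in the array annotation that had the highest mean. This gave 8 of the 9 genes, among 19938 genes in all. *Tubb4b*, a widely expressed β-tubulin also used in cilia, had no value, since both of its probe sets carry a second symbol.

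Expression was measured in ILC87-Ik1-ER cells on 4 Affymetrix Mouse Gene ST arrays. Cells on 2 of them had received 100 nM 4-hydroxytamoxifen (4OHT) for 24 h, and cells on the other 2 its vehicle, ethanol (EtOH), for as long. ILC87 is a single line grown from a thymic tumour of an Ikarosf/f Lck-cre+ mouse, in which Cre, driven by the *Lck* promoter, acts on the floxed Ikaros gene in T cells, and the cells of both treatments share this deletion. Both also carried the MigR1:Ik1-ER retrovirus, which encodes full-length Ikaros joined to the ligand-binding part of the oestrogen receptor, together with GFP, and GFP-positive cells had been sorted. 4OHT binds this receptor part and brings the fusion protein into the nucleus. The labels give the strain as C57BL/6, while the study's methods describe Ikaros-floxed Lck-Cre animals as of a mixed background. Cells without Ik1-ER given 4OHT were not on the arrays, and an effect of the ligand itself cannot be told apart from one of Ikaros. Each treatment has samples numbered 1 and 2. Whether these were separate cultures is not stated, and the p-values rest on a spread that may be technical only.

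Cells keep several tubulin genes whose products differ mainly in their acidic carboxy-terminal tails, and the mix of isotypes differs between tissues. Enzymes then add or remove tyrosine, glutamate and acetyl groups on tubulin, and the level of free tubulin feeds back on the stability of tubulin mRNA. In T cells, microtubules carry the spindle in dividing thymocytes and place the centrosome at the contact with another cell.

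The promoter windows of 3 of the genes are shown because *Tubb2a* was higher, *Tuba4a* lower and *Tubb5* nearly equal with 4OHT. Each runs from 250 bases before to 50 bases after the RefSeq gene start, 5′ to 3′ on the strand of the gene. Capitals mark matches on either strand. They mark the letters AGGAA, the core of the motif that the study names for Ikaros. They also mark a TATA box, spelled TATAAA. The third motif was the cAMP response element TGACGTCA, added after the *Tubb2a* window had been read.
Tubb2a (GRCm38.p6, chr13:34077959-34078258, minus strand): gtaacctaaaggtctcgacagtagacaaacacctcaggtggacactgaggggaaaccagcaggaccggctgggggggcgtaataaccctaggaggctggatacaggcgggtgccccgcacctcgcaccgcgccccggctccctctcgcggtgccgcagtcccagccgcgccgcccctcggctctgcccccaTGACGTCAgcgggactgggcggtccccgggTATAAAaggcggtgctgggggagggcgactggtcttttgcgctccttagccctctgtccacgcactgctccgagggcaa
Tuba4a (GRCm38.p6, chr1:75219245-75219544, minus strand): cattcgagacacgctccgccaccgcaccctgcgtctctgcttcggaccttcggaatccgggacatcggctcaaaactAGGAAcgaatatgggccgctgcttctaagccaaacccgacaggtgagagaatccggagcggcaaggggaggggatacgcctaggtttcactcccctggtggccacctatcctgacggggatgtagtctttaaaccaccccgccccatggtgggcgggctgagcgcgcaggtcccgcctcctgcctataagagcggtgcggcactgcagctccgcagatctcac
Tubb5 (GRCm38.p6, chr17:35838252-35838551, minus strand): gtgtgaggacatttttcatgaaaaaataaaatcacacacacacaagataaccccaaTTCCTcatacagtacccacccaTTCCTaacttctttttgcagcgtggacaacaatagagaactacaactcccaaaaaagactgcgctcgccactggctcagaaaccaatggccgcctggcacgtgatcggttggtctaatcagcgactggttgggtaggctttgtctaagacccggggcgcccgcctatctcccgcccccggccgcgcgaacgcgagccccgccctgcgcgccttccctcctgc
The *Tubb2a* window held no AGGAA, 1 TATA box at position −29 from the start and 1 cAMP response element at −59. The *Tuba4a* window held 1 AGGAA, at −173, and the *Tubb5* window held 2, at −194 and −172. AGGAA occurs in 66.7% of all 32851 promoter windows of this length, the TATA box in 13.6% and the cAMP response element in 1.79%. Of the 7 member genes whose windows were read, 4 held AGGAA. A filter by chromosome, applied to the tubulin windows, was not applied to the shares over all windows. No window was read for *Tubb2b*, the isotype gene with the largest rise, or for *Tubb6*. A match is only a description of the letters.

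The β-tubulin gene pair *Tubb2a* and *Tubb2b* was higher in 4OHT-treated cells. Both encode isotypes that are abundant in neurons, and mutations of human TUBB2B are known from malformations of the cerebral cortex. The log2 values of *Tubb2b* were 7.99 and 7.77 on the EtOH arrays and 9.49 and 9.50 on the 4OHT arrays. Both 4OHT arrays thus lay far above both EtOH arrays, by at least 1.50 and at most 1.73. The difference of the means was 1.61 on the log2 scale (standard error 0.10, n = 2 arrays each), a 3.06-fold higher level. Only 12 of the 19938 genes had a larger increase, as *Tubb2b* was number 13 from the top. The log2 values of *Tubb2a* were 8.69 and 8.61 with EtOH and 9.57 and 9.53 with 4OHT. Here too the treatments did not overlap, with pairwise differences of 0.83 to 0.97. The mean difference was 0.90 (standard error 0.077), a 1.87-fold higher level and number 92 from the top. Within a treatment the arrays differed by at most 0.22 for *Tubb2b* and 0.088 for *Tubb2a*. In the study, the *Tubb2a* locus served as a negative control for H3K27me3 in double-positive thymocytes. The 2 genes have very similar sequences, and how far the probes of one also read transcripts of the other is not known here.

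*Tubb5* encodes the main β-tubulin of most dividing cells. Its log2 values of 13.63 and 13.65 with EtOH and of 13.66 and 13.65 with 4OHT differed, before rounding, by no more than 0.02 between any arrays of different treatment. The mean difference was 0.01 (standard error 0.069), and it changed sign (−0.01) when the arrays were set to equal medians, so that no direction is given. The arrays of both treatments overlapped.

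The differences of *Tubb1*, *Tubb3* and *Tubb6* were small beside those of *Tubb2a* and *Tubb2b*. *Tubb1*, the isotype of megakaryocytes and platelets, had log2 values of 7.42 and 7.49 with EtOH and 7.38 and 7.48 with 4OHT, and the arrays of both treatments overlapped (mean difference −0.03, standard error 0.081). *Tubb3*, the isotype used as a marker of neurons, had values of 6.22 and 6.10 with EtOH and 6.34 and 6.21 with 4OHT, again with overlap (mean difference 0.12, standard error 0.091). *Tubb3* was dim, below the median of all deposited values (7.13), and without detection calls such a low level could not be told from background. *Tubb6*, a widely expressed and more divergent isotype, had values of 7.43 and 7.33 with EtOH and 7.47 and 7.53 with 4OHT. The 4OHT arrays of *Tubb6* were the higher ones, but the smallest gap to an EtOH array was 0.03 (mean difference 0.11, standard error 0.080). By contrast with *Tubb2b*, which moved more than 99.7% of all genes in either direction, *Tubb1*, *Tubb3* and *Tubb6* moved more than 12.3%, 51.9% and 50.3% of them.

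Of the α-tubulin genes, *Tuba4a* was lower with 4OHT. It encodes the α-tubulin that is made without the carboxy-terminal tyrosine. Its log2 values were 11.29 and 11.25 with EtOH and 10.76 and 10.88 with 4OHT. No arrays overlapped, and the pairwise differences were −0.53 to −0.37. The mean difference was −0.45 (standard error 0.081), a 1.36-fold lower level, larger in size than that of 92.7% of genes. *Tuba8*, a divergent α-tubulin of muscle, brain and platelets, had values of 8.05 and 8.17 with EtOH and 8.28 and 8.22 with 4OHT. The treatments did not overlap for *Tuba8* either, by a smallest gap of 0.05, and the mean difference was 0.14 (standard error 0.081).

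**Figure D1:**
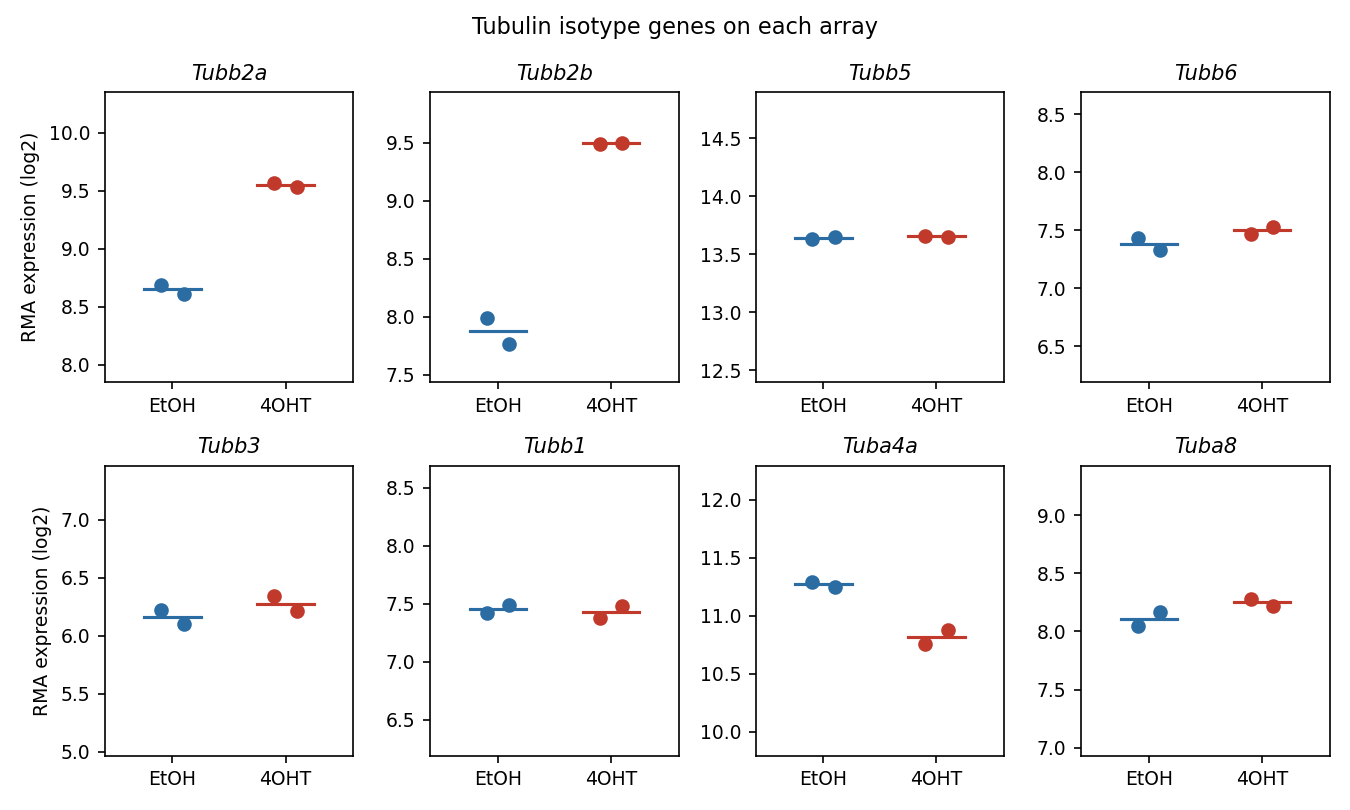
RMA expression (log2) of the 8 measured tubulin isotype genes on each array, with EtOH in blue and 4OHT in red; points are single arrays, lines are means of 2 arrays, and every panel spans the same number of log2 units around the mean of its gene, so that distances but not heights can be compared between panels. The 4OHT arrays of Tubb2a and Tubb2b lie above the EtOH arrays by at least 0.83 and 1.50, those of Tuba4a lie below by at least 0.37, and the other genes stay within 0.25 between any arrays of different treatment.

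With limma across all probe sets and a Benjamini-Hochberg adjusted p under 0.05, 2 of the 8 measured isotype genes were called higher (*Tubb2a* and *Tubb2b*) and none was called lower, while 1.23% of all genes were called higher and 2.99% lower. Of these 8 genes, 5 had treatments whose arrays did not overlap, which was the case for 56.6% of all genes. The genes were listed with these differences in view, and nothing is read from the counts. The median difference of the 8 genes was 0.12 on the log2 scale, beside 0.031 over all genes. Without 4OHT replicate 1 *Tubb2b* alone was called, and without EtOH replicate 1, EtOH replicate 2 or 4OHT replicate 2 no isotype gene was. The log2 differences hardly moved in these fits, from 1.50 to 1.72 for *Tubb2b*, from 0.86 to 0.94 for *Tubb2a* and from −0.51 to −0.38 for *Tuba4a*.

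The 11 further tubulin genes are described in the same way. Of these 9 had a value, and none of them was called by limma, beside 4.23% of all genes. An unadjusted p under 0.05 was found for 3 (*Tuba1a*, *Tubal3* and *Tubg1*), beside 4069 of all 19938 genes. *Tuba1a*, the main α-tubulin of developing neurons, had log2 values of 9.72 and 9.69 with EtOH and 10.33 and 10.63 with 4OHT. Both 4OHT arrays were higher by at least 0.61, and they also differed by 0.30 from each other (mean difference 0.78, standard error 0.12, a 1.71-fold higher level). *Tubg1*, the γ-tubulin that nucleates microtubules, had a mean difference of 0.21 and its paralogue *Tubg2* one of −0.26, each without overlap of the treatments. The centriolar *Tubd1* and *Tube1* had mean differences of 0.15 and 0.18, the testis isotypes *Tuba3a* and *Tuba3b* of 0.18 and 0.24, *Tubal3* of 0.21 and the neuronal and glial β-tubulin gene *Tubb4a* of 0.02. *Tuba3b*, *Tubal3* and *Tubb4a* were below the median of all values (7.13) on every array. Without detection calls their levels could not be told from background. *Tuba1b* and *Tuba1c* had no probe set of their own. In all, 7 probe sets carry a tubulin symbol beside other symbols and were given to no gene.

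**Figure D2:**
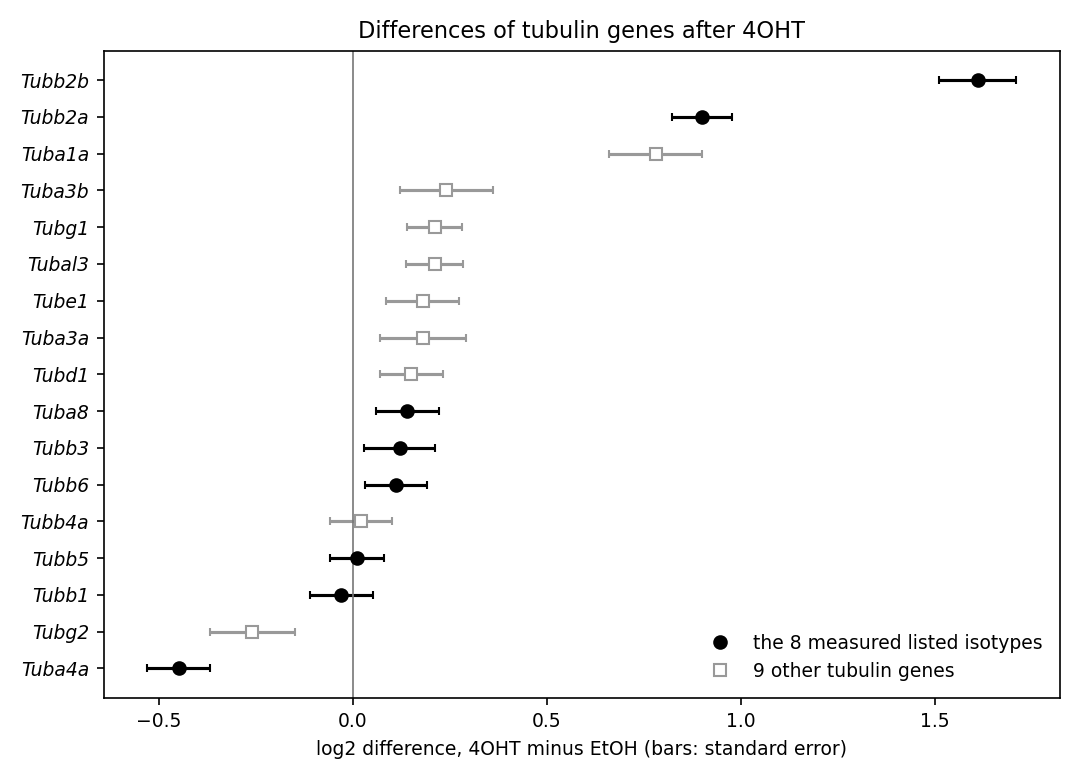
Difference in log2 expression (4OHT minus EtOH) of the 8 measured isotype genes (filled circles) and of 9 other tubulin genes (open squares), ordered by size; bars are standard errors from limma over 2 arrays per treatment. Tubb2b (1.61), Tubb2a (0.90) and Tuba1a (0.78) stand to the right of the others, and Tuba4a (−0.45) is at the far left.

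*Tubb2a* and *Tubb2b* neighbour each other on chromosome 13 with no protein-coding gene between them. The measured genes on either side were looked at after the pair had been seen. None of these 8 genes, 4 on each side, was called by limma, beside 4.23% of all 19938 genes. With so few genes, nothing is read from this count. *Bphl*, a hydrolase gene next to *Tubb2a*, had log2 values of 8.07 and 7.95 with EtOH and 7.59 and 7.66 with 4OHT, thus a difference in the opposite direction (−0.39, adjusted p = 0.0995 from limma). *Psmg4*, a proteasome assembly gene next to *Tubb2b*, had a difference of 0.02 (adjusted p = 0.937 from limma). The other 6 genes (*Serpinb6c*, *Serpinb6a*, *Nqo2*, *Slc22a23*, *Pxdc1* and *Fam50b*) had differences between −0.07 and 0.23.

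**Figure D3:**
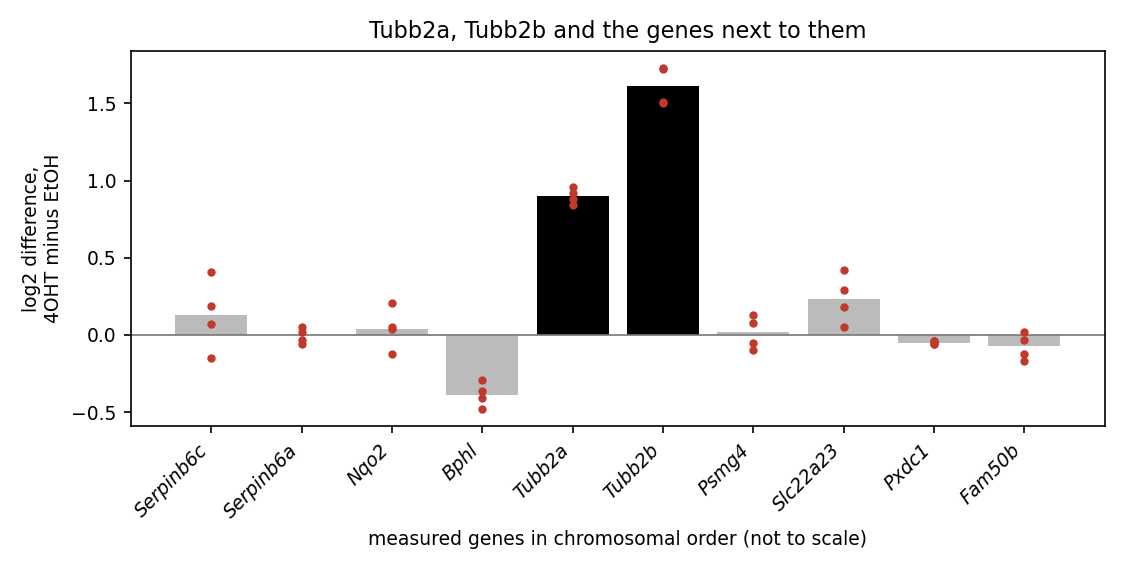
Difference in log2 expression (4OHT minus EtOH) of Tubb2a and Tubb2b (black bars) and of the 4 measured genes on each side (grey bars), in chromosomal order and not to scale. Red points are the 4 differences between single arrays. Those of Tubb2a and Tubb2b lie at 0.83 and above, while those of the neighbours lie between −0.48 (Bphl) and 0.41.

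The genes whose values over the 4 arrays, each centred on its own mean, lay nearest to those of *Tubb2b* were *Sp100*, a nuclear body gene (log2 difference 1.58, Euclidean distance 0.083), *Mcoln3*, a lysosomal channel gene (1.70, distance 0.099), and *Txk*, a T-cell kinase gene (1.53, distance 0.12). Those nearest to *Tuba4a* were *Utp25*, a ribosome biogenesis gene (−0.45, distance 0.0046), *Il7r*, the receptor for interleukin-7 (−0.44, distance 0.024), and *Etfb*, a mitochondrial electron carrier gene (−0.44, distance 0.026). With 4 arrays this likeness says little more than that the size of the difference is alike.

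Of 26 measured genes of enzymes that modify tubulin, 23 did not pass the test, 2 fell and 1 rose, beside 2.99% of all genes called lower and 1.23% called higher. The median log2 difference of the group was 0.0095, against 0.031 over all genes. *Hdac6*, which removes acetyl groups from α-tubulin, had log2 values of 9.43 and 9.55 with EtOH and 8.26 and 8.15 with 4OHT. It fell 2.43-fold (log2 difference −1.28, standard error 0.088, adjusted p = 0.0117 from limma). *Vash2*, which cuts off the carboxy-terminal tyrosine of α-tubulin, had values of 8.40 and 8.25 with EtOH and 7.31 and 7.14 with 4OHT. It fell 2.15-fold (log2 difference −1.10, standard error 0.10, adjusted p = 0.0189 from limma). *Ttll1*, the catalytic part of a polyglutamylase, had values of 9.25 and 9.42 with EtOH and 10.00 on both 4OHT arrays, and rose 1.58-fold (log2 difference 0.66, standard error 0.090, adjusted p = 0.0396 from limma). The treatments did not overlap for any of these 3 genes. The genes of the opposing or partner activities, picked after the values were seen, did not pass the test. The acetyltransferase gene *Atat1* had a log2 difference of −0.38 (adjusted p = 0.238 from limma), the tyrosine ligase gene *Ttl* one of −0.13 (adjusted p = 0.478 from limma) and *Svbp*, the partner of the vasohibins, one of −0.18 (adjusted p = 0.318 from limma). In the same list *Sirt2* had a log2 difference of −0.03 (adjusted p = 0.897 from limma), and *Vash1* had no value.

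Among 53 genes of microtubule-associated proteins and of microtubule dynamics, 49 did not pass, 3 rose and 1 fell, beside the same 1.23% and 2.99% of all genes (median log2 difference 0.075). *Map1a*, which encodes a microtubule-associated protein known from neurons, had values of 7.02 and 7.00 with EtOH and 7.84 and 7.92 with 4OHT and rose 1.83-fold (adjusted p = 0.0169 from limma). Its EtOH values lay below the median of all values (7.13), and without detection calls they could not be told from background. *Map4*, the main microtubule-associated protein outside neurons, rose 1.77-fold, from 9.57 and 9.48 to 10.40 and 10.29 (adjusted p = 0.0215 from limma), while its second probe set had a log2 difference of 0.29 (adjusted p = 0.216 from limma). *Mapre2*, which encodes a protein of growing microtubule ends, rose 1.50-fold (adjusted p = 0.0421 from limma). *Tacc2*, a centrosomal coiled-coil gene, fell 1.60-fold, from 8.40 and 8.56 to 7.83 and 7.77 (adjusted p = 0.0373 from limma). Of 13 genes of the γ-tubulin ring complex and its anchors, *Mzt2*, a small subunit of the complex, fell 1.98-fold, from 8.55 and 8.77 to 7.55 and 7.80 (adjusted p = 0.0384 from limma), and 12 did not pass.

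No gene was called by limma among 23 genes of tubulin folding, 12 of tubulin mRNA autoregulation, 26 of dynein, dynactin and kinesin-1, and 5 actin isotypes. An unadjusted p under 0.05 was found for 2, 0, 3 and 0 genes of these lists, and for 4069 of all 19938 genes. The folding genes, which encode the chaperonin, prefoldin and the tubulin cofactors, had the lowest median log2 difference of these lists (−0.11, against 0.031 over all genes), and 20 of the 23 were below 0. Their summed linear signal was 48400 to 49700 on the EtOH arrays and 43300 to 47600 on the 4OHT arrays. The size of this shift thus differed between the 4OHT arrays. The actin isotypes lay between 0.02 and 0.12. *Ttc5*, whose product recognises nascent tubulin chains, was picked after the values were seen and had a log2 difference of 0.02 (adjusted p = 0.952 from limma). Over these 7 lists, 8 of 158 genes were called (4 higher and 4 lower), a share of 5.06% that lies near the 4.23% called among all genes. Without 4OHT replicate 1, 3 of them were called (*Hdac6*, *Vash2* and *Map1a*), and without any other single array none was, at log2 differences of −1.34 to −1.22 for *Hdac6* and 0.83 to 0.91 for *Map1a*.

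**Figure D4:**
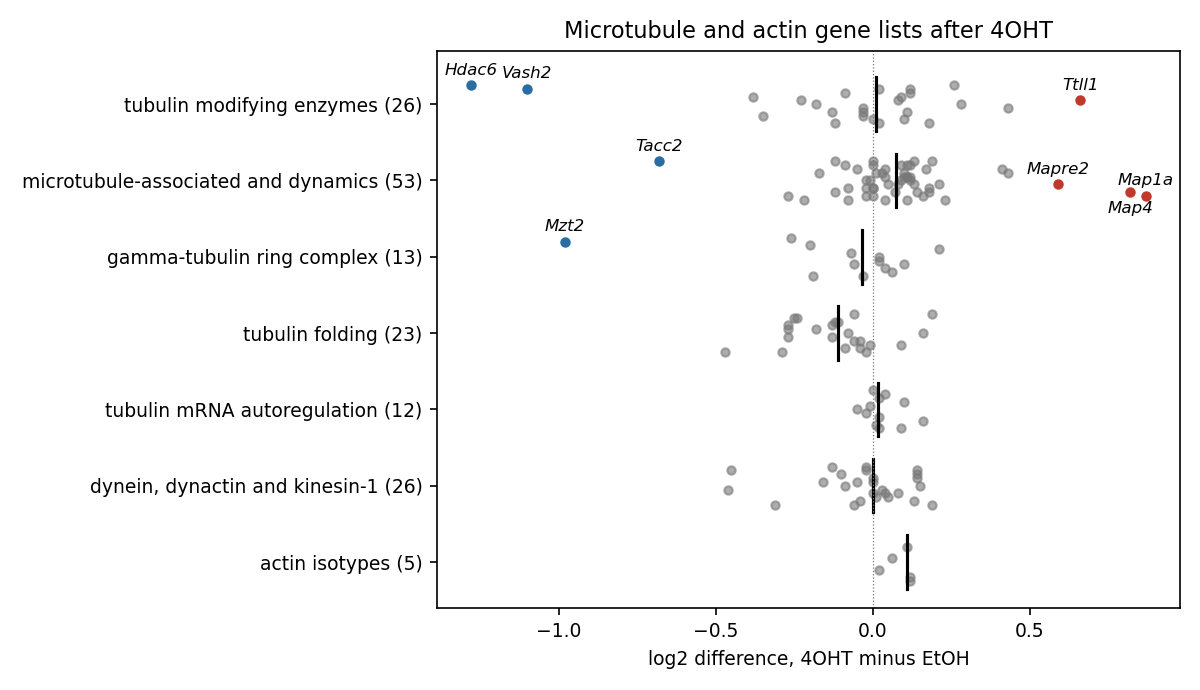
Difference in log2 expression (4OHT minus EtOH) of every measured gene of the 7 lists, with the number of genes in brackets; red points were called higher, blue lower and grey not called, at an adjusted p under 0.05 from limma. The black line of each list is its median, which runs from −0.11 for the folding genes to 0.11 for the actin isotypes, and the 8 called genes are named.

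Markers of cell types that are known for particular tubulins were read on the same arrays. Beside them, 1.23% of all genes were called higher and 2.99% lower, and 4069 of 19938 had an unadjusted p under 0.05. All 9 measured T-cell markers had a mean at or above the median of all values, with 1 of them called lower (*Cd3d*, log2 difference −0.94, adjusted p = 0.0172 from limma). An unadjusted p under 0.05 was found for 7 of the 9, with differences in both directions. Examples picked after the values were seen were −0.49 for *Cd3g* and −0.31 for *Cd3e* and 0.27 for *Lat* and 0.24 for *Cd247* (median of the 9 genes −0.19). Of 11 megakaryocyte and platelet markers, the cells of *Tubb1*, none was called (0 at an unadjusted p under 0.05), and their summed linear signal was 1110 to 1210 with EtOH and 1160 to 1230 with 4OHT. Of 12 neuronal markers, the cells of *Tubb3*, only *Elavl4* was called, an RNA-binding protein gene with values of 6.16 and 6.02 with EtOH and 7.58 and 7.60 with 4OHT (log2 difference 1.50, adjusted p = 0.00909 from limma). The summed signal of the 12, which includes *Elavl4*, was 1290 to 1340 with EtOH and 1480 to 1500 with 4OHT. The 11 neuronal markers not called had log2 differences between −0.04 and 0.20. Of the 12, 2 had a mean at or above the median of all values. All arrays were of a single sorted T-cell line, so these markers are read as transcripts of that line. Their relation to the differences of *Tubb2a* and *Tubb2b* was not tested. Of 7 B-cell, 8 myeloid and 4 erythroid markers, 1 was called higher (*Itgam*, 0.68, adjusted p = 0.0239 from limma) and 1 lower (*Lyz2*, −1.24, adjusted p = 0.0104 from limma). *Lyz2* was below the median of all values (7.13) on every array, with 6.75 and 6.84 with EtOH and 5.60 and 5.53 with 4OHT. *Itgam* (6.62 and 6.56) and *Elavl4* were below it with EtOH. Without detection calls such low levels could not be told from background. In a bulk sample of this line, fewer cells with a transcript and less of it per cell cannot be told apart. *Ikzf1*, which the Ik1-ER construct could also feed, had a log2 difference of 0.07 (adjusted p = 0.698 from limma), and the reference gene *Hprt* one of 0.10 (adjusted p = 0.606 from limma). Across probe sets, which are not independent, the correlation was r = 0.994 to 0.996 within a treatment and 0.989 to 0.990 between treatments.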

How the data were processed

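The authors deposited log2 expression values of 4 Affymetrix Mouse Gene ST arrays (35556 probe sets, between 3.09 and 14.2), each hybridised from 150 ng of RNA. RMA values had been made in Affymetrix Expression Console 1.1, according to the submitters' processing notes. This method subtracts background, makes the arrays' distributions equal and combines the probes of a set. A change common to most genes is thereby hidden, and dim differences are compressed. No source used here names the genome build of the probe sets.

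Treatments were compared by limma 3.58.1 under R 4.3.3, as a two-sided moderated test on the deposited log2 values without filter or block (2 residual and 2.66 prior degrees of freedom), and p was adjusted after Benjamini-Hochberg over all 35556 probe sets. The number of arrays limits the precision, and an exact permutation test of 2 against 2 cannot go below p = 0.33. Symbols came from the array annotation (21789 probe sets with 1 symbol, 1621 with several, 12146 with none), and 21698 were updated through RefSeq (GRCm38.p6), from which the promoter windows and the gene order were also taken. Named were all isotype and other tubulin genes, up to 4 called genes per list with the largest change, the checks *Ikzf1* and *Hprt*, and the 3 genes nearest in pattern to the isotype genes with the largest rise and fall. Members and lists were chosen with earlier results of these data known. The alternatives were a block for the sample number, other scalings, a minimum mean log2 of 6, fewer probe sets, an intensity trend, gene means, single arrays left out and a stricter threshold.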

Additional observations from a re-analysis of the deposited data

How the results depend on the processing

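Only the other scalings and the left-out arrays could change the log2 differences of the isotype genes, since the other alternatives change the test alone. Leaving out an array also cannot reverse a gene whose treatments do not overlap. Within these limits the direction stayed the same for *Tubb2b* (1.50 to 1.72), *Tubb2a* (0.86 to 0.95), *Tuba4a* (−0.51 to −0.38), *Tuba8*, *Tubb3* and *Tubb6*. The differences of *Tubb1* (−0.08 to 0.03) and *Tubb5* (−0.01 to 0.02) crossed 0. The calls depended on the fit. Of 843 genes, 2 isotype genes and 8 listed microtubule and actin genes called, single arrays left out gave 0 to 241, 0 to 1 and 0 to 3; none of the 19938 genes was called without EtOH replicate 1 or without EtOH replicate 2 (2819 and 2586 at an unadjusted p under 0.05), 241 without 4OHT replicate 1 and 79 without 4OHT replicate 2, in fits that assume the lone array of a treatment to vary like the other treatment's. At an adjusted p under 0.01 the counts were 73, 0 and 0. Among probe sets with 1 symbol they were 2741, 3 and 18, and on gene means 2874, 3 and 18, the third isotype gene being *Tuba4a* (also called with an intensity trend); the cause was not tested. Labels do not pair the arrays by their number, and same-numbered arrays deviated at r = −0.13. With a replicate block the counts were 30, 0 and 0; with the numbers crossed, an alternative chosen after seeing the data, they were 535, 2 and 5. Array signals carry no detection calls, which limits what can be said of dim genes such as *Tubb3*.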
